A study of Ursus arctos with 12 samples.

Results

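Relaxing a muscle fibre requires that calcium be pumped back into the sarcoplasmic reticulum, and the 10 genes described here encode the pumps that do this, their inhibitors, and the proteins that hold calcium once it is stored or free in the cytosol. They are the SERCA pumps ATP2A1, ATP2A2 and ATP2A3, the pump inhibitors sarcolipin (SLN) and phospholamban (PLN), the calsequestrins CASQ1 and CASQ2, parvalbumin (PVALB), sarcalumenin (SRL) and the histidine-rich calcium binding protein (HRC). The members were chosen by gene symbol, with earlier results of these data known, and all 10 were found among the 30249 genes of the count table. All 10 also had enough reads to be tested, as did 17290 genes in all.

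The samples were biopsies of the vastus lateralis, a thigh muscle, from 6 free-ranging Scandinavian brown bears (Ursus arctos) aged 2 to 3 years. Each bear was biopsied under anaesthesia during winter hibernation (W) and again in the following summer (S), when it was active, so that there were 6 libraries per season and the same 6 animals in both. No treatment was given beyond the capture, and the seasons differed in hibernation together with everything else that changes between winter and summer in a wild bear. Whole muscle RNA was sequenced, so fewer cells of a type and less RNA per cell cannot be told apart.

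SERCA pumps spend ATP to move calcium from the cytosol into the reticulum. ATP2A1 (SERCA1) is the pump of fast fibres, ATP2A2 (SERCA2) that of slow fibres and heart, and ATP2A3 (SERCA3) is known from blood, endothelial and other non-muscle cells. Sarcolipin and phospholamban are small membrane proteins that bind the pump and slow calcium uptake, and sarcolipin lets the pump go on splitting ATP while less calcium is moved, which is the basis of its known role in muscle heat production. Calsequestrins, sarcalumenin and HRC bind calcium in or at the lumen of the reticulum, whereas parvalbumin buffers it in the cytosol of fast fibres.

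Levels are given in CPM, the counts of a gene scaled to a common library size and so comparable between libraries but not between genes. The libraries held 16742406 to 32140160 reads assigned to genes. The winter library of bear 1509 stood apart from the others on the second principal component of all genes, which held 14.6% of the variance, with a score of -98.6 against 6.35 to 23.1 for the other winter libraries. Its values are given below where they touch a result, and each call was also made without bear 1509. The 8 genes listed as markers of skeletal muscle identity summed to 100018 to 167655 CPM in summer and 107402 to 146102 CPM in winter, so the labelled tissue carried its defining markers in all 12 libraries.

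All 3 SERCA genes and the buffers CASQ1 and HRC were lower in winter, and none of the 10 genes was called higher. A gene was called where the adjusted p of edgeR's quasi-likelihood test, paired by bear and corrected by Benjamini-Hochberg over all genes tested, was under 0.05. The 5 of 10 members called lower stand beside 21.2% of all genes tested that were called lower, and the 0 members called higher beside 19.6% called higher. At an unadjusted p under 0.05 the members also counted 0 higher and 5 lower, as they did with DESeq2 and with limma voom. The median log2 fold change (winter against summer) of the 10 members was -0.44, where that of all genes was -0.01. The same 5 genes were lower in 6 of 6 bears, a pattern held by 19.0% of all genes. Together the 10 genes took 1.34 to 1.73% of reads in summer and 1.01 to 1.34% in winter.

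**Figure D1:**
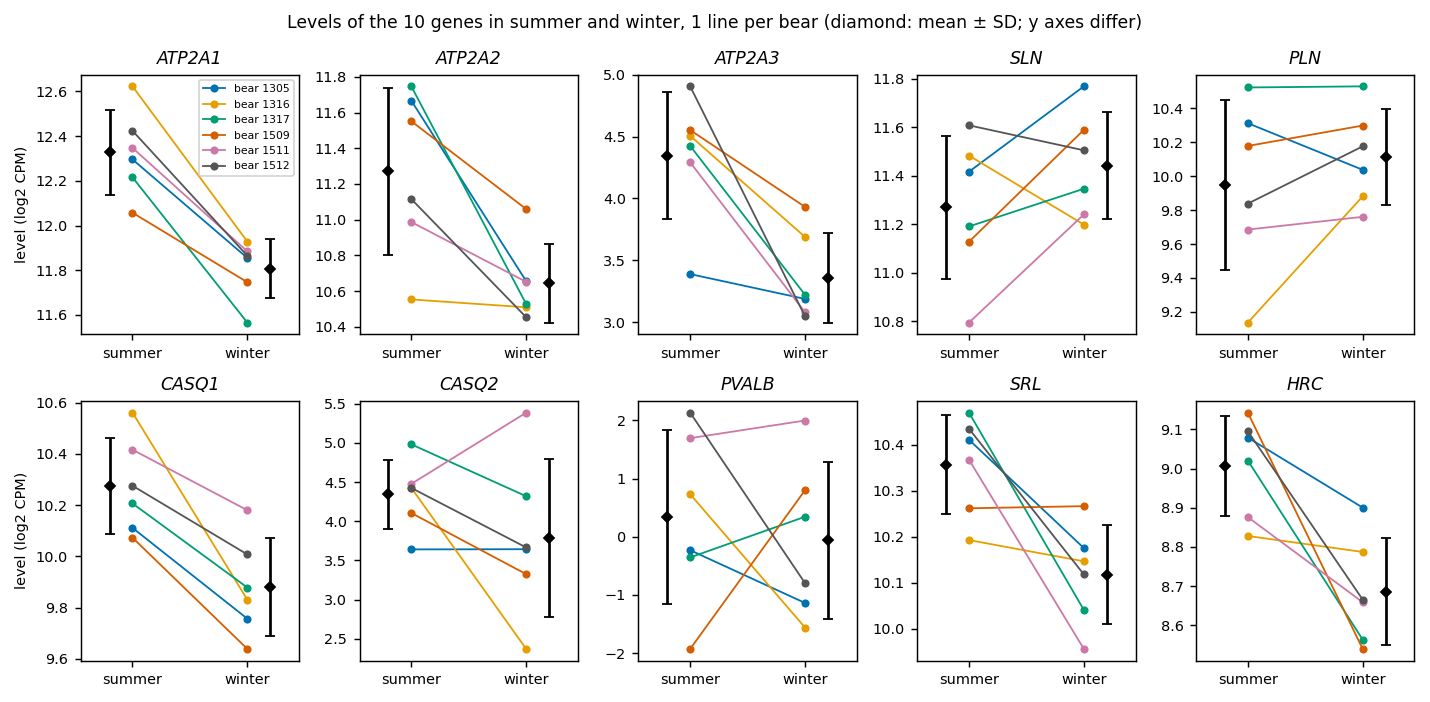
Levels of the 10 genes in log2 CPM (y axes, which differ between panels and do not start at 0) in summer and winter, with 1 line per bear and the mean ± SD of each season as a diamond with bars (n = 6). The lines of ATP2A1, ATP2A2, ATP2A3, CASQ1 and HRC fall in 6 of 6 bears, whereas those of SLN, PLN, CASQ2 and PVALB cross.

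Among the pumps, ATP2A1 stood in summer at 4263 CPM in the lowest, 5120.4 in the median and 6308 in the highest library, and in winter at 3031, 3717 and 3897 CPM. The highest winter library lay below the lowest summer library, and ATP2A1 was the only member whose seasons did not overlap, against 17.3% of all genes tested. The mean level was 5178 ± 695 CPM in summer and 3596 ± 316 CPM in winter (SD, n = 6), a winter/summer fold of 0.697 (95% interval 0.574 to 0.847, edgeR adjusted p = 0.00793). Within single bears the difference ran from -0.69 to -0.31 on the log2 scale.

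ATP2A2 stood at 1502, 2610.2 and 3438 CPM in the lowest, median and highest summer library and at 1402, 1542 and 2134 CPM in winter. The seasons overlapped because bear 1316 had a low summer level of 1502 CPM, while the other summer libraries held 2029 to 3438 CPM, and because the winter library of bear 1509 held 2134 CPM. The fold was 0.647 (95% interval 0.501 to 0.836, edgeR adjusted p = 0.0122), with differences within a bear from -1.22 to -0.04 (log2). The summer library of bear 1316 was also the lowest of its season for PLN, at 563 CPM, and for MYH7, the slow myosin heavy chain, at 2726 CPM. Without bear 1316, ATP2A2 kept its call, with a log2 fold change of -0.74.

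ATP2A3 was read far less often, with 139 to 765 reads per library. Its levels were 10.4, 22.0 and 29.9 CPM in the lowest, median and highest summer library and 8.17, 9.13 and 15.2 CPM in winter. The lowest summer library, that of bear 1305, lay inside the winter range, and the other summer libraries held 19.5 to 29.9 CPM, above all winter libraries. ATP2A3 had the lowest fold of the called members, 0.502 (95% interval 0.375 to 0.673, edgeR adjusted p = 0.00218).

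Markers of endothelial, smooth muscle and blood cells are set beside ATP2A3, and their counts beside the same 21.2% of all genes called lower and 19.6% called higher. Of 9 endothelial markers tested, 6 were called lower and 2 higher in winter, and the list summed to 671 to 996 CPM in summer and 476 to 549.6 CPM in winter. VWF, the clotting factor carrier of endothelium, had a log2 fold change of -1.26 (edgeR adjusted p = 0.000169), the endothelial cadherin CDH5 -1.01 and the VEGF receptor KDR -0.98. The transcription factor ERG (0.46, adjusted p = 0.00557) and the junction protein CLDN5 (0.78, 0.0319) were called higher, and the angiopoietin receptor TEK was at -0.06 and not called. Of 8 smooth muscle markers, 5 were lower and 0 higher (unadjusted p under 0.05: 6 lower and 0 higher; DESeq2: 5 lower and 0 higher), with calponin CNN1 at -1.42, leiomodin LMOD1 at -1.22 and the myosin kinase MYLK at -1.08, and the list summed to 274 to 432 CPM in summer and 166 to 260.0 CPM in winter. Of 10 blood and immune markers tested, 4 were lower and 1 higher, and their sums overlapped, at 34.5 to 112 CPM in summer and 61.3 to 88.0 CPM in winter. The T cell gene CD3E (-1.45, log2) and the B cell gene CD79A (-1.32) were both called lower, on at most 24 reads in a library. EGFL7 of endothelium and GP9 of platelets had too few reads to be tested, and PF4 and HBB were not matched and are not analysed here. Their part in the ATP2A3 result was not tested.

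**Figure D2:**
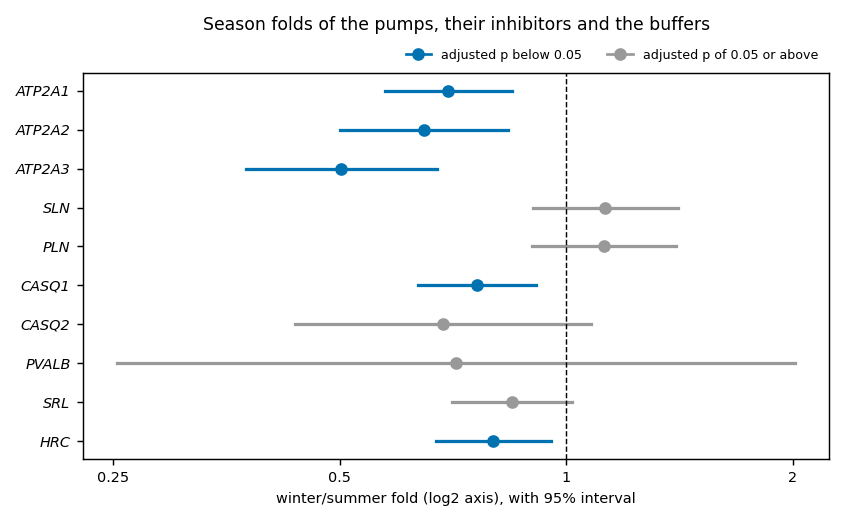
Winter/summer fold of the 10 genes (x axis, log2 spacing) with its 95% interval from the edgeR fit paired by bear, in blue where the adjusted p was under 0.05 and in grey otherwise (n = 6 bears). The intervals of the 3 pumps, CASQ1 and HRC lie below 1, that of PVALB runs from 0.253 to 2.01, and those of SLN and PLN hold 1.

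Sarcolipin and phospholamban were not called lower in winter, unlike the pumps. SLN stood at 1777, 2536 and 3122 CPM in the lowest, median and highest summer library and at 2351, 2755 and 3489 CPM in winter. The seasons overlapped broadly, and SLN was higher in winter in 4 of 6 bears. The fold was 1.13, and its 95% interval of 0.903 to 1.40 held both a small decrease and an increase (edgeR adjusted p = 0.365). With 40222 to 89259 reads of SLN per library, the width of this interval came from the spread between bears, whose differences ran from -0.28 to 0.46 (log2).

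PLN stood at 563, 1037 and 1471 CPM in summer and at 867, 1104 and 1478 CPM in winter. It was higher in winter in 5 of 6 bears and overlapped between seasons. Its fold was 1.12 (95% interval 0.901 to 1.40, edgeR adjusted p = 0.375). The bear with the lowest summer level, 1316, had the largest difference of 0.74 (log2), and bear 1305 the lowest of -0.27.

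The level of an inhibitor can also be set against that of the pump in the same library, which does not depend on the scaling between libraries. Reads are not corrected for transcript length, so such ratios are compared between seasons only. The 4 ratios computed were tested by an exact two-sided permutation test that flips the sign of each bear's difference, where 0.03125 is the smallest p that 6 bears allow.

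Reads of SLN per read of ATP2A1 plus ATP2A2 were 0.245, 0.319 and 0.405 in the lowest, median and highest summer library and 0.439, 0.560 and 0.656 in winter. Every winter library lay above every summer library. The ratio was higher in winter in 6 of 6 bears, by 0.75 ± 0.30 on the log2 scale (SD, n = 6), or 1.68-fold (exact p = 0.03125, Benjamini-Hochberg over the 4 ratios 0.0625). Most of this difference lay in the pumps, with log2 fold changes of -0.52 for ATP2A1 and -0.63 for ATP2A2, against 0.17 for SLN, which was not called. The ratio is thus no separate result from the lower pumps, and the share of other gene pairs with such a ratio was not computed.

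Reads of PLN per read of ATP2A2, its partner in slow muscle and heart, were 0.375, 0.398 and 0.428 in summer and 0.539, 0.649 and 1.00 in winter. The summer libraries lay close together, although the levels of both genes spread widely among them, and no winter library came down to them. The ratio was higher in 6 of 6 bears, by 0.80 ± 0.29 (log2, SD, n = 6), or 1.74-fold (exact p = 0.03125, adjusted 0.0625). Here too most of the difference lay in the pump, with log2 fold changes of -0.63 for ATP2A2 and 0.17 for PLN, which was not called. Neither ratio passed 0.05 after adjustment, and 0.0625 is the least that adjustment gives when 2 of 4 tests reach the smallest p. An exact permutation test that ignored the pairing gave an adjusted p of 0.00433 for both ratios. Where the seasons do not overlap, that test always gives its smallest p, so it adds nothing to the separation given above.

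**Figure D3:**
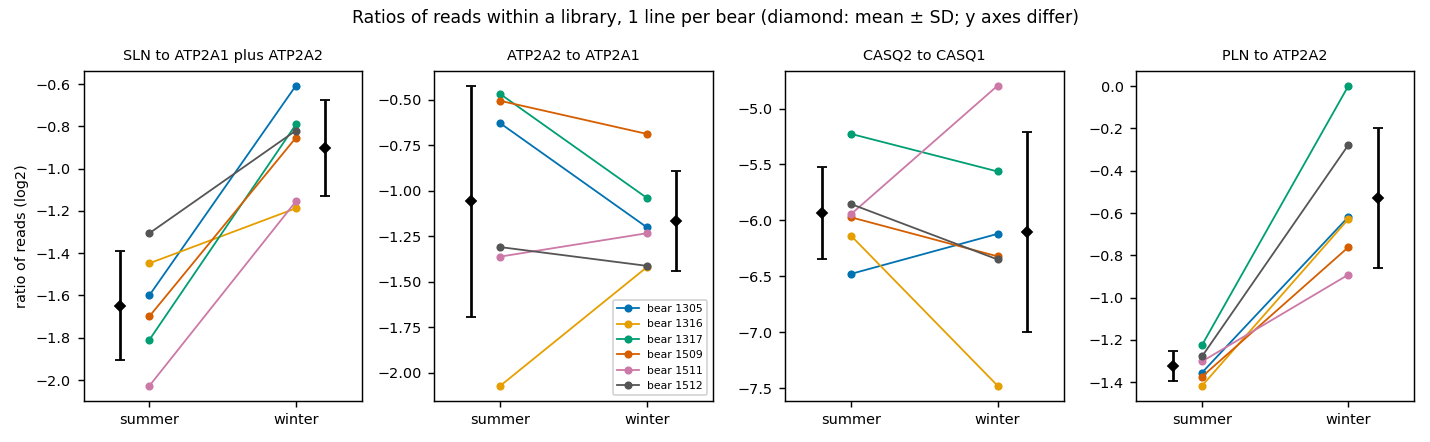
Log2 ratios of reads within a library (y axes, which differ between panels) in summer and winter, with 1 line per bear and the mean ± SD of each season as a diamond with bars (n = 6). The ratios of SLN to ATP2A1 plus ATP2A2 and of PLN to ATP2A2 are higher in winter in 6 of 6 bears, without overlap between seasons, and those of ATP2A2 to ATP2A1 and of CASQ2 to CASQ1 have lines in both directions.

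The balance between the slow and the fast pump differed by less than the spread between bears. Reads of ATP2A2 per read of ATP2A1 were 0.238, 0.525 and 0.723 in summer and 0.374, 0.430 and 0.621 in winter. The difference was -0.11 ± 0.46 (log2, SD, n = 6), with 2 of 6 bears higher in winter (exact p = 0.594, adjusted 0.625). The lowest summer ratio belonged to bear 1316 and the highest winter ratio to bear 1509.

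Other genes were taken from a list drawn up as SERCA micropeptides and modulators. Whether each of them acts on the pump in this muscle was not tested. The list held 13 genes, of which 9 had enough reads to be tested. Of these 9, 3 were called higher and 0 lower, beside 19.6% of all genes called higher and 21.2% called lower. At an unadjusted p under 0.05 they counted 4 higher and 1 lower, and with DESeq2 3 higher and 0 lower. Their median log2 fold change was 0.03. Myoregulin (MRLN), a micropeptide of skeletal muscle that inhibits the pump as sarcolipin does, ranged from 18.4 to 27.8 CPM in summer and from 70.2 to 113 CPM in winter, on 433 to 3130 reads per library. Its seasons did not overlap, as in 17.3% of all genes tested, and it rose in 6 of 6 bears, as did 18.4%. Its fold was 3.85 (log2 1.95, SE 0.12, edgeR adjusted p = 6.11e-06). S100A1, a calcium-binding protein that acts on the pump and on the release channel, ranged from 109 to 284 CPM in summer and from 343 to 569.5 CPM in winter, with a fold of 2.34 (SE 0.22 on the log2 scale, edgeR adjusted p = 0.00167). The selenoprotein SELENOK rose from 22.5 ± 4.96 to 33.1 ± 2.40 CPM (SD, n = 6, log2 fold change 0.59, edgeR adjusted p = 0.00916). STRIT1, ERLN and ARLN, which encode further micropeptides that bind the pump, were not matched and are not analysed here.

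Of the buffers in the reticulum, CASQ1, the calsequestrin of fast and slow skeletal fibres, stood at 1077, 1211 and 1511 CPM in the lowest, median and highest summer library and at 797, 926 and 1160.1 CPM in winter. The winter library of bear 1511 lay inside the summer range, and the other winter libraries lay below all summer libraries. CASQ1 was lower in 6 of 6 bears, with a fold of 0.762 (95% interval 0.636 to 0.913, edgeR adjusted p = 0.0215). The call was lost without bear 1305 (adjusted p = 0.0549) and without bear 1316 (0.0679).

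CASQ2, the calsequestrin of heart and slow fibres, stood at 12.4, 21.4 and 31.5 CPM in summer and at 5.08, 12.5 and 41.8 CPM in winter. The winter libraries held both the lowest level, that of bear 1316, and the highest, that of bear 1511. CASQ2 was lower in 4 of 6 bears, and its fold of 0.685 had a 95% interval from 0.436 to 1.08 (edgeR adjusted p = 0.165). Without bear 1511 it was called lower, with a log2 fold change of -0.84 (adjusted p = 0.0258). Reads of CASQ2 per read of CASQ1 differed between seasons by -0.17 ± 0.84 (log2, SD, n = 6, exact p = 0.625, adjusted 0.625).

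Few of the cardiac markers were found beside CASQ2 and PLN. Of 10 cardiac markers, TNNI3 was not matched and is not analysed here. NPPB, MYL7, NKX2-5 and GATA4 were at 0 in all libraries, and 2 markers had enough reads to be tested. These were the troponin TNNT2, which developing and regenerating skeletal muscle also uses, with a log2 fold change of 1.19 (edgeR adjusted p = 0.0494), and the myosin MYH6, with -0.79 (0.0488). DESeq2 called neither, and the list summed to 140 to 442 CPM in summer and 118 to 307 CPM in winter. MYH6 is a near-identical copy of MYH7, and reads of the pair may have been split between them.

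HRC stood at 454, 530.0 and 565 CPM in the lowest, median and highest summer library and at 372, 405 and 478 CPM in winter. The winter levels of bears 1305 and 1316 lay in the lower part of the summer range or just under it. HRC was lower in 6 of 6 bears, with a fold of 0.800 (95% interval 0.671 to 0.955, edgeR adjusted p = 0.0454). This call lay at the threshold: it was lost in 7 of 14 alternative analyses, among them those without bear 1305, 1317, 1509, 1511 or 1512, with adjusted p from 0.00289 to 0.123 over all of them.

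SRL, the glycoprotein that binds calcium in the longitudinal reticulum beside the pump, stood at 1170.4, 1341 and 1418 CPM in summer and at 993, 1122 and 1232 CPM in winter. The winter level of bear 1509 lay inside the summer range and close to its own summer level, and the other winter libraries lay below all summer libraries. Its fold of 0.847 (95% interval 0.706 to 1.02) was not called (edgeR adjusted p = 0.133).

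PVALB, the cytosolic buffer, was barely read, with 4 to 110 reads per library. Its levels were 0.176, 1.17 and 4.30 CPM in summer and 0.252, 0.835 and 3.91 CPM in winter, with 3 bears higher and 3 lower. The 95% interval of its fold ran from 0.253 to 2.01 (edgeR adjusted p = 0.592), so a difference between seasons was not detectable at this depth and spread. Without bear 1512 the log2 fold change turned from -0.49 to 0.10.

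The other genes of calcium handling were grouped in lists by role, and counts in them are read against the same 21.2% lower and 19.6% higher of all genes. Of 19 genes of the junction and calcium release, 4 were called higher and 3 lower, with a median log2 fold change of 0.02. Triadin (TRDN), which tethers calsequestrin to the release channel, rose from 661 ± 99.1 to 992 ± 163 CPM (SD, n = 6, log2 fold change 0.58, edgeR adjusted p = 0.00235). Junctophilin JPH2, which holds the reticulum to the surface membrane, fell by 0.68 (log2, adjusted p = 0.00841), and FKBP1A, a subunit that steadies the release channel, fell by 0.58 (0.00216). The release channel itself, RYR1, had a log2 fold change of 0.23 and was not called (0.251).

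Of 8 genes tested that export calcium across the plasma membrane or into the Golgi, 1 was called higher and 4 lower, with a median log2 fold change of -0.37. The plasma membrane pump ATP2B1 rose from 99.6 ± 18.2 to 170.1 ± 30.6 CPM (SD, n = 6, log2 fold change 0.77, edgeR adjusted p = 0.00209). Another, ATP2B3, fell by 1.55 (log2, adjusted p = 0.000459), and the sodium-calcium exchanger SLC8A3 by 0.67 (0.00267).

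Of 18 genes of store-operated entry and mitochondrial uptake, 0 were called higher and 5 lower (unadjusted p under 0.05 and DESeq2: also 0 higher and 5 lower), with a median log2 fold change of -0.32. The entry channel ORAI3 fell by 1.05 (log2, edgeR adjusted p = 0.00521). The uniporter regulator MCUR1 fell by 0.68 (0.00299), and MICU2, the gatekeeper of the uniporter, fell by 0.55 (0.0071). The uniporter pore MCU had a log2 fold change of 0.09 and the store sensor STIM1 of -0.03, and neither was called.

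Of 11 calcium-binding chaperones of the reticulum lumen tested, 2 were called higher and 6 lower, with a median log2 fold change of -0.34. The reticulocalbin RCN3 fell by 1.62 (log2, edgeR adjusted p = 0.000183) and the disulfide isomerase PDIA4 by 0.93 (0.000186). CALR3, a calreticulin known from testis, rose by 2.55 (log2, 0.00039) on only 2 to 63 reads per library.

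Of 20 cytosolic calcium sensors and effectors tested, 5 were called higher and 2 lower, with a median log2 fold change of 0.09. The calcineurin-controlled transcription factor NFATC3 rose from 47.5 ± 10.1 to 88.5 ± 13.2 CPM (SD, n = 6, log2 fold change 0.91, edgeR adjusted p = 0.000655), and its relative NFATC4 fell by 0.84 (log2, 0.00359). The buffer CALB1 was called at 4.22 (log2, 0.0171) on 30 reads in the winter library of bear 1509 and at most 1 read in any other library, with 2 bears higher and 0 lower, so this call rests on the library that stood apart.

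**Figure D4:**
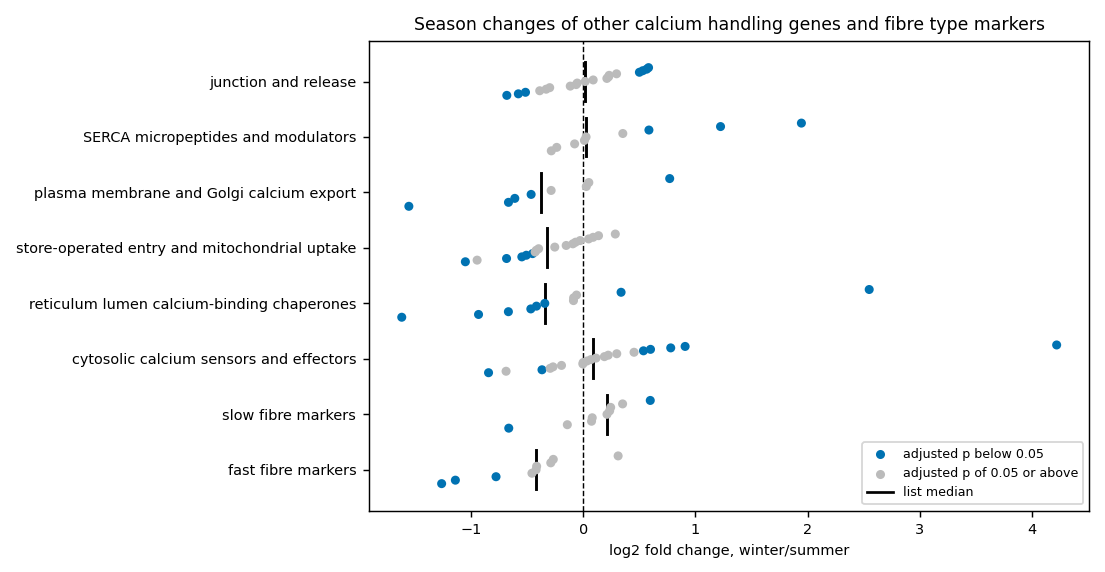
Log2 fold change, winter against summer, of each tested gene (points) of 6 calcium handling lists and 2 fibre type lists, in blue where the edgeR adjusted p was under 0.05, with the list's median as a black bar. The 3 called genes listed as SERCA micropeptides or modulators lie to the right of 0. The 5 called genes of store-operated entry and mitochondrial uptake lie to the left, and the point at 4.22 is CALB1.

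Because pumps and calsequestrins differ between fibre types, fibre markers were set beside them. Their counts are read against the same 21.2% lower and 19.6% higher of all genes. Of 9 slow fibre markers, 1 was called higher and 1 lower, with a median log2 fold change of 0.21. MYH7, whose reads may have been split with MYH6, was lower in 6 of 6 bears. It had 2726 to 6589.5 CPM in summer and 1931 to 4323 CPM in winter (log2 fold change -0.66, SE 0.21, edgeR adjusted p = 0.0284). Calsarcin MYOZ2 was called higher (0.60, adjusted p = 0.027). Neither was called without bear 1512 or in the edgeR fit without pairing by bear. In the winter library of bear 1509, where ATP2A2 was the highest of its season at 2134 CPM, MYH7 was at 1991 CPM, the next to lowest of its season.

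Of 9 fast fibre markers tested, 0 were called higher and 3 lower, beside 19.6% of all genes called higher and 21.2% called lower. At an unadjusted p under 0.05, and also with DESeq2, they counted 0 higher and 5 lower. Their median log2 fold change was -0.42. Fast myosin binding protein MYBPC2 fell by 1.26 (log2, edgeR adjusted p = 0.000243), the myosin kinase MYLK2 by 1.14 (0.00353) and the fast actinin ACTN3 by 0.78 (0.00577). The fast myosin light chain MYLPF had a log2 fold change of 0.31 and was not called. The fast myosin heavy chain MYH1 was at -0.46, with 3 bears higher and 3 lower, and was not called (edgeR adjusted p = 0.295). The listed fast myosin heavy chains MYH2 and MYH4 were not matched and are not analysed here. Among the muscle identity markers, 3 were called higher and 2 lower, beside the same shares of all genes. Myoglobin (MB) was at -1.02 (log2), actin ACTA1 at -0.91 and the regulator MYF6 at 0.65. The part of fibre type in the lower pumps was not tested.

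The genes whose levels over the 12 libraries were most like those of a member were named from 10350 genes by Pearson correlation of log2 CPM, as a description, since all libraries share season, bear and scaling. For ATP2A1 they were MAP1LC3A (r = 0.946), GCDH (0.927) and FDPS (0.925). For ATP2A2 they were SPTLC2 (0.949), NCAPG2 (0.939) and ADAM9 (0.937). For SLN they were TATDN1 (0.905), ART3 (0.902) and VAPA (0.879). Among the members, ATP2A1 and CASQ1 had the highest correlation (r = 0.850), and that of ATP2A1 with PLN was -0.600. Taken over the winter minus summer differences of only 6 bears instead, r of ATP2A1 with CASQ1 was 0.381. Among all member pairs it then ran from -0.802 (SLN with PLN) to 0.833 (CASQ1 with CASQ2). For ATP2A1 with SLN, r was 0.83 over the differences and -0.165 over the libraries. For ATP2A2 with PLN it was 0.751 and 0.424. Over the differences, r was -0.294 for ATP2A2 with SLN and -0.554 for ATP2A1 with PLN.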

How the data were processed

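RNA of 12 vastus lateralis biopsies (6 bears, winter and summer) was sequenced as 50-base reads. The authors deposited raw counts per gene: per the labels and the study's methods, reads were aligned with TopHat2 2.1.1 (with Bowtie2, for which the labels and the methods give different versions) to the brown bear assembly ASM358476v1 and counted with featureCounts 1.6.2. Libraries were spread over 2 lanes, and which library ran on which lane is not given in the sources used here.

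Counts were analysed in R 4.3.3. Genes with at least 30 reads over the 12 libraries were kept. edgeR 4.0.16 was run with TMM scaling, season and bear as terms and the quasi-likelihood test, with Benjamini-Hochberg adjustment over all 17290 genes. SE is the log2 fold change divided by the root of F, and 95% intervals use the t quantile of edgeR's degrees of freedom. Log2 CPM used a prior count of 2, and CPM was scaled by TMM. CPM is not per length, so levels are not compared between genes. Libraries were paired by bear, since per the methods each animal gave a biopsy in either season. After the season means were taken off, the winter and the summer library of a bear had correlations of 0.0903 to 0.344, and libraries of different bears a median of -0.0634. The lowest chi-square per gene between libraries of a season was 39.5, so no library was a copy of another. The fit was tested on simulated data, where it called 62% of genes given a 2-fold change and 83.7% of those given a 4-fold change. It made 12 false calls there, among 17071 genes of which 198 were given a change. In the data 7055 genes were called. Changes smaller than 2-fold, such as those of the called members, were not simulated.

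Ratios were log2 of reads plus 0.5, tested by exact permutation over 6 bears. Of 161 list genes, 145 were matched by symbol, 7 by gene ID through the RefSeq table of UrsArc2.0 and 9 not at all. The 7 were JPH2, TMEM203, STIMATE, MYH7, TPM3, MYH1 and MYH6, and UrsArc2.0 is not the assembly on which reads were counted. Besides the 10 members, the text names by rule up to 3 called genes per list with the largest change and the 3 genes most like ATP2A1, ATP2A2 and SLN (mean of at least 1 log2 CPM, named symbol), and a gene that the rule would name is not reported here. RYR1, MCU, STIM1, MYLPF, MYH1, ERG, CLDN5 and TEK were named after their values were seen. The members and lists were chosen with earlier results of these data known. Alternatives were DESeq2 1.42.0, limma voom 3.58.1, no block, other scalings and filters, a stricter call and leaving out each bear.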

Additional observations from a re-analysis of the deposited data

Results flagged for a closer look

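In winter, the ATP2A2 level of bear 1509 was 11.0592 (log2 CPM), and the other 5 winter libraries held 10.45 to 10.66. The gap to the next library was 0.666 of the range of the 6 libraries, above Dixon's critical value at the 95% level for 6 samples. Of 28 groups of 6 libraries examined for the members and their ratios, this was the only one past that value, where chance gives about 1 in 20 groups. This library also stood apart over all genes on the second principal component. Without bear 1509 the log2 fold change of ATP2A2 was -0.64 (edgeR adjusted p = 0.0218), against -0.63 with all bears.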

How the results depend on the processing

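Of 140 values (10 members under 14 alternatives), 128 kept their direction and their side of the threshold, 9 lost the call, 2 gained it and 1 turned. ATP2A1, ATP2A2 and ATP2A3 were called in all 14, with adjusted p of at most 0.0313, 0.0459 and 0.00878. Beside the cases above, HRC was not called with RLE size factors (0.0507) or without a filter on low counts (0.0723), and SRL was called by DESeq2 without the replicate block (0.0112). PVALB ranged from -1.04 to 0.10 (log2) with 1 bear left out, and turned without bear 1512. edgeR without the replicate block called 5 members lower and 0 slow fibre markers, and in edgeR the block changed no call of a member. With 1 bear left out in turn, members called lower counted 3 to 5 (3 without bear 1305), called SERCA modulators 3 to 5 (5 without bear 1509), genes of store-operated entry and mitochondrial uptake 3 to 6 (3 without bear 1305 or 1317), slow fibre markers 0 to 2 (0 without bear 1512, 1 without 1305, 1316, 1317 or 1511) and fast fibre markers 3 to 6 (6 without bear 1317). Fast fibre markers called numbered 5 by DESeq2 with and without the block and 5 when scaled by library totals, which moved the median of all genes to -0.08. With an adjusted p under 0.01 and a fold above 1.3 or below 0.77, 4440 genes were called (2115 higher, 2325 lower), with 2 members, ATP2A1 and ATP2A3, 3 genes of store-operated entry and mitochondrial uptake, 5 lumen chaperones and 0 slow fibre markers. Without the pairing, the exact permutation test of the SLN to pump ratio (0.75) and the PLN to ATP2A2 ratio (0.80) passed the threshold. Both stood at the smallest p that this unpaired test allows. CASQ2 to CASQ1 turned to 0.07 without bear 1316. The cause of these changes was not tested.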
